A study of Canis lupus familiaris with 36 samples.

Results

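NFATC1 (Ensembl gene ENSCAFG00000000011 in the count table) encodes nuclear factor of activated T cells 1, a transcription factor that lymphocytes hold in the cytoplasm until calcium rises. It was taken from the table by its identifier, with earlier results of these data known, and it is 1 gene of 30424. The count table comes from CLBL-1, a single established line of canine diffuse large B-cell lymphoma, so all groups share one genetic background. Its cells were grown at 3 passages, named p121, p126 and p128 (replicates 1, 2 and 3 in this order), and received the vehicle DMSO, 1 µM of the BTK inhibitor ibrutinib (Ibr), 5 µM of the PI3Kγ inhibitor AS-605240 (AS), or both agents (Ibr + AS). The incubation lasted 24, 48 or 72 h, and every inhibitor group also received the vehicle. That makes 12 groups of 3 libraries, 36 in all. The paper gives the DMSO concentration of the control as that of the Ibr + AS group, and states none for the single agents. The library of Ibr at 72 h in passage p128 stayed out of the tests, a choice taken over from the methods of the study. The passages are successive cultures of one line, so p-values measure the spread between cultures of CLBL-1 and not between dogs.

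When an antigen binds the B-cell receptor, the kinases SYK and BTK activate phospholipase Cγ2, which releases calcium from internal stores through IP3 receptors. Calcium and calmodulin switch on the phosphatase calcineurin, calcineurin removes phosphates from NFAT proteins, and these move into the nucleus. PI3K enzymes make the membrane lipid that recruits BTK, and BTK lies upstream of this calcium step. The part of PI3Kγ, the isoform that AS inhibits, in this step was not tested. NFAT is controlled mainly by where the protein sits, while NFATC1 can also be induced at the RNA level. The measurements here are RNA only, and they do not show phosphorylation or location of the protein.

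The libraries held between 9941919 and 14703839 reads on genes, and NFATC1 received between 369 and 897 of them. Levels are given as CPM, read counts divided by library size, with TMM factors that correct for differences in RNA composition between libraries. The RefSeq annotation of the assembly UU_Cfam_GSD_1.0, which is not the CanFam3.1 build the reads were mapped to, lists 6 transcripts of NFATC1 and 0 other genes that overlap it. Gene counts sum over transcripts, so that isoforms and promoters of NFATC1 cannot be told apart. Of the defining markers of B cells in a list of 10, only TNFRSF13C (the BAFF receptor) could be paired with an identifier, and it had 866 to 3439 reads in every library. The T cell markers IL2RB and CD226 had at most 1 and 7 reads. Of the myeloid markers, TREM2 had at most 1 read, CSF2RB had 97 to 216, and lysozyme (LYZ) had 809 to 3665.

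NFATC1 was transcribed in every library at a moderate and rather even level. Over the 35 libraries of the tests, the lowest value was 34.3 CPM, the median was 44.9 CPM and the highest was 65.8 CPM, so that the extremes lay 1.92-fold apart. In all, 5 of 36 comparisons passed an adjusted p of at most 0.05, 3 with higher and 2 with lower NFATC1. The largest absolute log2 FC was 0.54, below the value of 1 that a differentially expressed gene (DEG) has to exceed, and DEGs made up 0.0321% to 8.26% of the genes tested in these comparisons. The RNA of NFATC1 rose with time in the vehicle, rose with time under AS, and was lower with Ibr + AS than with DMSO at 72 h. Percentages of genes called below are over all genes tested, also those with few reads. Among the 10785 genes averaging 1 CPM or more they were higher for these 5 calls. They were 14.9% and 54.6% for DMSO 48 h and 72 h against 24 h, and 9.86% for AS 72 h against 24 h. For Ibr + AS against DMSO at 72 h it was 45.5%, and for the change of that effect from 24 h to 72 h it was 39.7%.

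In DMSO, passages p121, p126 and p128 had 38.0, 40.5 and 40.2 CPM of NFATC1 at 24 h. The same passages had 52.8, 51.3 and 49.4 CPM at 48 h. At 72 h they had 61.2, 49.6 and 65.8 CPM. No library at 48 h or 72 h overlapped those at 24 h, while the 72 h libraries spread widely, with passage p126 no higher than at 48 h.

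With Ibr, NFATC1 was at 53.6, 47.01 and 45.1 CPM at 24 h. At 48 h it was at 44.8, 47.1 and 45.6 CPM. At 72 h it was at 56.9 and 52.8 CPM in passages p121 and p126, and the left-out library of passage p128 had 52.3 CPM. The Ibr libraries at 24 h all lay above those of DMSO at 24 h, and the Ibr libraries at 48 h all lay below those of DMSO at 48 h.

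With AS, NFATC1 stood at 40.3, 35.2 and 38.3 CPM at 24 h. At 48 h it stood at 41.5, 39.7 and 39.8 CPM. At 72 h it stood at 44.9, 50.9 and 54.01 CPM. The AS libraries at 24 h overlapped DMSO, those at 48 h lay below every DMSO library of that time, and at 72 h the ranges overlapped again.

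With Ibr + AS, NFATC1 measured 34.3, 44.3 and 51.2 CPM at 24 h, the widest spread relative to its mean of any group. At 48 h it measured 44.7, 42.7 and 44.2 CPM. At 72 h it measured 49.6, 43.5 and 41.3 CPM. Passage p121 went up between 24 h and 72 h and passage p128 went down, so that passages moved in opposite directions under the combination.

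**Figure D1:**
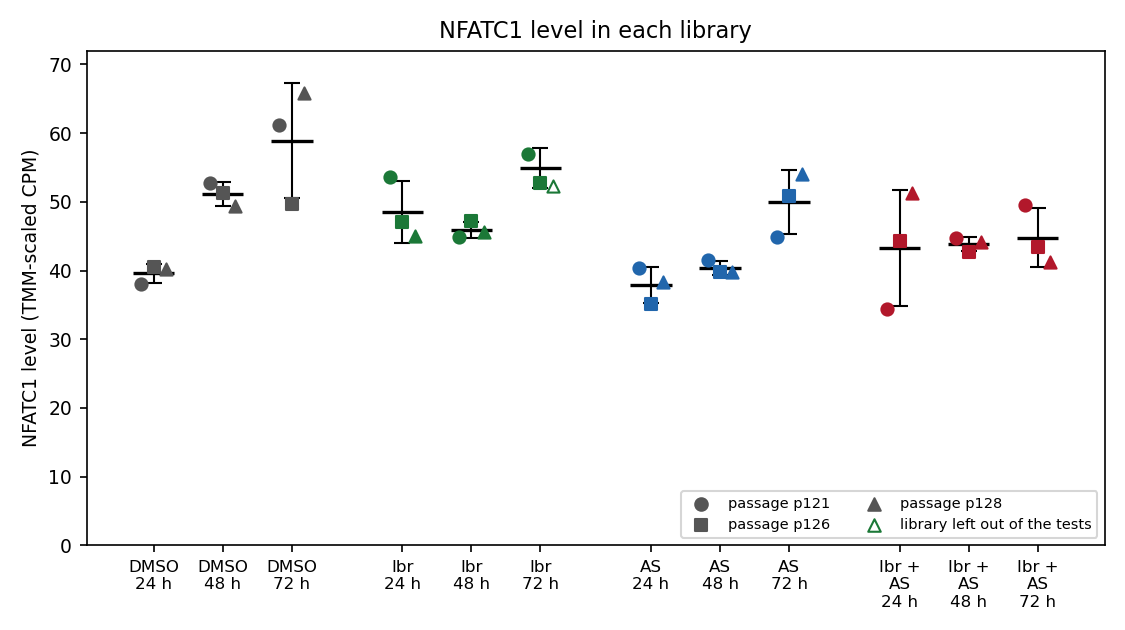
NFATC1 level in TMM-scaled CPM (y axis, from 0) in each library of the 12 groups (x axis), with symbols for passages p121, p126 and p128, a bar for the mean and whiskers for 1 SD. The open symbol is the Ibr 72 h library left out of the tests, DMSO climbs from a mean of 39.6 to 58.9 CPM, and Ibr + AS stays between means of 43.3 and 44.8 CPM.

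Ordered by mean, the lowest group was AS 24 h with 37.9 ± 2.60 CPM (SD, n = 3) and the highest was DMSO 72 h with 58.9 ± 8.35 CPM (SD, n = 3), a ratio of 1.55. Between them came DMSO 24 h with 39.6 ± 1.35, AS 48 h with 40.4 ± 1.00, Ibr + AS 24 h with 43.3 ± 8.48 and Ibr + AS 48 h with 43.9 ± 1.00 CPM (SD, n = 3 each). Then followed Ibr + AS 72 h with 44.8 ± 4.28, Ibr 48 h with 45.9 ± 1.17, Ibr 24 h with 48.6 ± 4.49, AS 72 h with 49.9 ± 4.66 and DMSO 48 h with 51.1 ± 1.70 CPM (SD, n = 3 each), and then Ibr 72 h with 54.9 ± 2.90 CPM (SD, n = 2). Only 1 of the 11 steps between neighbours in this order, from DMSO 48 h to Ibr 72 h, was larger than the larger SD of the pair. Without TMM factors Ibr + AS 24 h had a mean of 40.9 CPM, below the 41.0 CPM of DMSO 24 h, so the order of these groups depends on the scaling. Vehicle cultures stood both near the bottom and at the top of the order, depending on the incubation time.

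The first comparison asked how NFATC1 changed in vehicle-treated cells as the incubation went on. From 24 h to 48 h the transcript rose by 28.3%, a log2 FC of 0.36 with a standard error (SE) of 0.09 and an adjusted p of 0.00102 (edgeR quasi-likelihood test). NFATC1 was higher in 3 of 3 passages, by 0.47, 0.34 and 0.30 on the log2 scale. Of all genes tested, 9.92% were called in this comparison. Without passage p121 the log2 FC was 0.30 and the adjusted p was 0.0528, and over 9 alternatives the adjusted p ran from 0.000252 to 0.0528.

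From 24 h to 72 h NFATC1 rose by 45.1% in DMSO, with a log2 FC of 0.54 (SE 0.09) and an edgeR adjusted p of 5.62e-09. Passages p121, p126 and p128 gave 0.69, 0.29 and 0.71, so all 3 went up, the middle one least. The call was shared with 38% of the genes tested, 18.5% in the same direction, and it held in all 9 alternatives, with log2 FC from 0.46 to 0.68. The step from 48 h to 72 h alone was a log2 FC of 0.18 (SE 0.09, adjusted p = 0.110 by edgeR), where 29.4% of genes were called. Without passage p126 this step was 0.30 with an adjusted p of 0.00994. With the sequencing run, inferred from sample-sheet numbers, as a further term it was 0.29 with an adjusted p of 0.00831.

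In passage p126 the rise of NFATC1 lay between 24 h and 48 h, whereas passages p121 and p128 rose in both intervals. By the inferred sequencing runs, the p126 library of DMSO at 72 h was in another run than those at 24 h and 48 h. Run and time cannot be told apart there, while p121 and p128 did not change run. The p126 libraries of AS and Ibr + AS at 48 h also differed in run from DMSO at 48 h. In the same DMSO libraries TNFRSF13C, the paired B cell marker, went from 103 to 127 CPM at 24 h to 70.6 to 81.1 CPM at 72 h, a direction opposite to that of NFATC1. The summed level of the paired myeloid markers was 85.0 to 103 CPM at 24 h and 98.3 to 124 CPM at 72 h, most of it LYZ. In bulk RNA, fewer cells with the transcript and less transcript per cell cannot be told apart, and the part of either marker in the change of NFATC1 was not tested.

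The next comparison set each inhibitor against DMSO of the same time. With Ibr + AS at 72 h NFATC1 was lower than with DMSO, a difference of -23.1% or a log2 FC of -0.38 (SE 0.10) with an edgeR adjusted p of 0.00208. The 3 treated libraries, at 41.3 to 49.6 CPM, lay below the 3 vehicle libraries, at 49.6 to 65.8 CPM. Their edges met at passages p121 and p126, with 49.56 CPM for the treated and 49.62 CPM for the vehicle library. Passages p121, p126 and p128 gave log2 differences of -0.30, -0.19 and -0.67. In this comparison 28.6% of the genes tested were called, 14.5% as lower.

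Passage p128 carried much of that difference. Without it NFATC1 had a log2 FC of -0.25 with an adjusted p of 0.270, while the other 9 alternatives kept the call, the lowest adjusted p of all 10 being 0.00128. The paired B cell marker was at 151 to 235 CPM and the myeloid sum at 147 to 189 CPM in these Ibr + AS libraries, both above the vehicle ranges at 72 h, and their part in the lower NFATC1 was not tested.

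Earlier in the combination NFATC1 was not called against the vehicle. At 24 h the log2 FC was 0.12 (95% confidence interval -0.08 to 0.33, adjusted p = 0.437 by edgeR) while 34% of all genes were called. At 48 h it was -0.21 (interval -0.41 to 0.00, adjusted p = 0.124 by edgeR) with 30.8% of genes called, and every treated library lay below every vehicle library. A fit on the groups of that comparison alone gave -0.19 with an adjusted p of 0.0403.

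The single agents gave smaller or less certain differences. Ibr at 24 h gave NFATC1 a log2 FC of 0.29 (SE 0.10, interval 0.08 to 0.49) and an edgeR adjusted p of 0.0627. It was higher in 3 of 3 passages, and 9.13% of genes were called there. DESeq2 gave an adjusted p of 0.0372, edgeR on genes kept by filterByExpr gave 0.0459, and a fit on the groups compared gave 0.000538. The other alternatives did not call it, with adjusted p up to 0.468.

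AS at 48 h pointed the other way. NFATC1 had a log2 FC of -0.32 (SE 0.10, interval -0.52 to -0.11) with an edgeR adjusted p of 0.0653, against 3.66% of genes called. The passages were close together, at -0.35, -0.37 and -0.31. Of 10 alternatives 4 called it, among them DESeq2 with an adjusted p of 0.0302.

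The remaining comparisons of single agents with DMSO were not called for NFATC1. Ibr gave -0.13 at 48 h (interval -0.34 to 0.07, adjusted p = 0.546) and -0.08 at 72 h (interval -0.31 to 0.15, adjusted p = 0.758) by edgeR, where 10.6% and 17.6% of genes were called. AS gave -0.06 at 24 h (interval -0.27 to 0.14, adjusted p = 0.914) and -0.21 at 72 h (interval -0.42 to -0.01, adjusted p = 0.178) by edgeR, with 2.52% and 13.2% of genes called. The interval of AS at 72 h includes the log2 FC of -0.38 seen with Ibr + AS at that time. That of Ibr at 72 h does not reach it. The direct comparison of Ibr + AS with Ibr at 72 h was not called, with a log2 FC of -0.30 (adjusted p = 0.108 by edgeR).

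**Figure D2:**
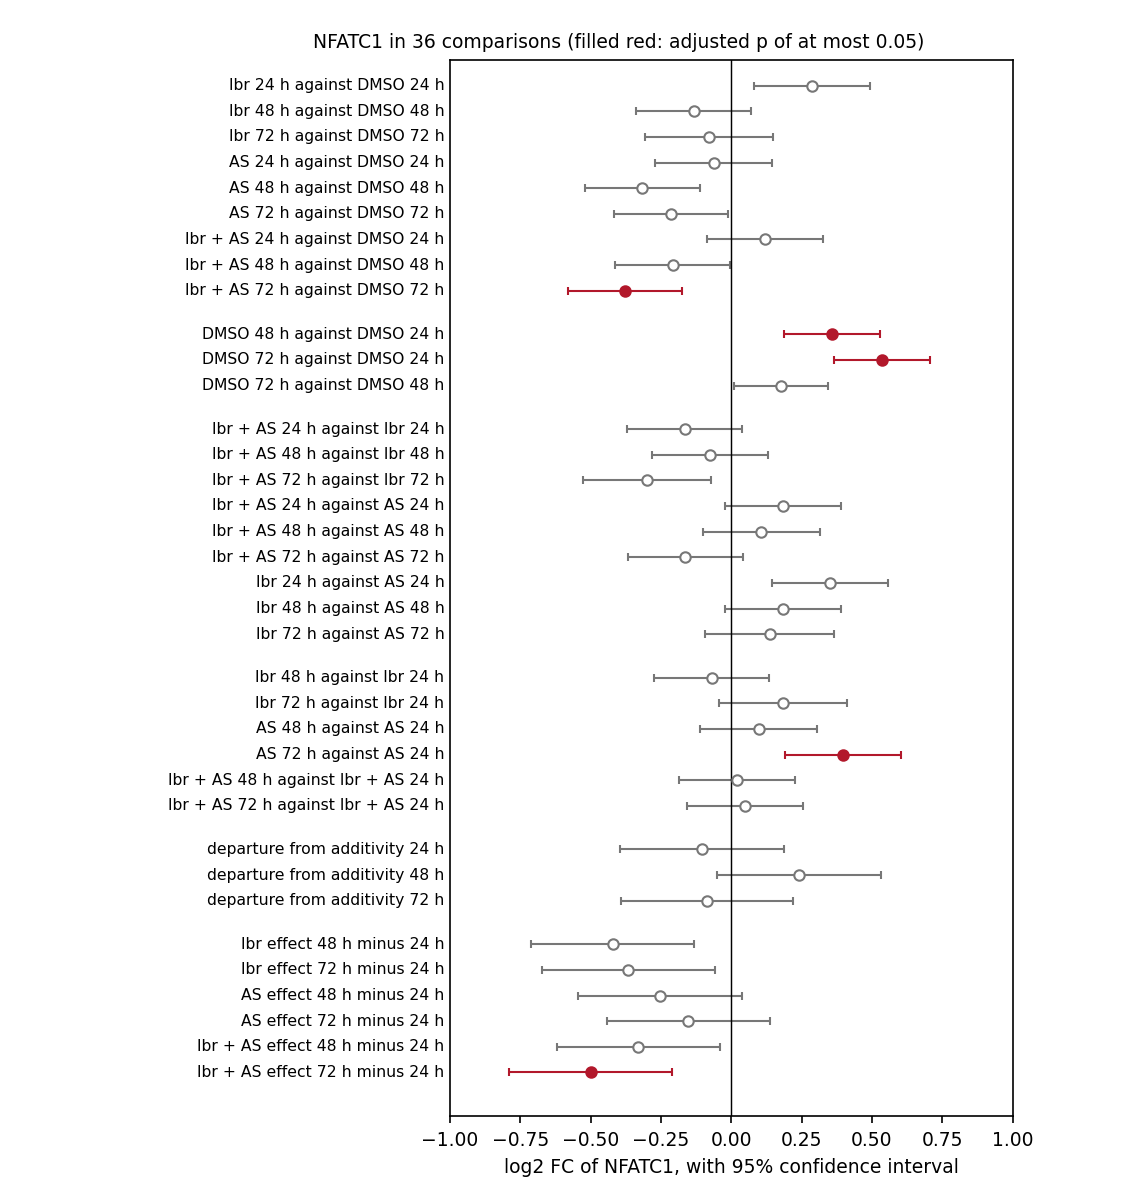
Log2 FC of NFATC1 (x axis) with its 95% confidence interval in the 36 comparisons (rows), filled red where the edgeR adjusted p is at most 0.05. The 3 red points above 0 are DMSO 48 h and 72 h against 24 h and AS 72 h against 24 h, and the 2 below 0 are Ibr + AS against DMSO at 72 h and the change of that effect from 24 h to 72 h.

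The inhibitor groups were then followed over time, to see whether the rise of the vehicle cultures also took place in them. With AS, NFATC1 rose by 31.7% from 24 h to 72 h, a log2 FC of 0.40 (SE 0.10) with an edgeR adjusted p of 0.00746. Passages p121, p126 and p128 gave 0.15, 0.53 and 0.50, and 5.93% of genes were called. Without passage p126 the log2 FC was 0.33 (adjusted p = 0.124), and without passage p128 it was 0.35 (adjusted p = 0.258), both by edgeR. By the inferred sequencing runs, the p126 libraries of AS, Ibr and Ibr + AS at 72 h were in another run than those at 24 h. In that passage run and time cannot be told apart.

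With Ibr the same interval gave 0.18 (95% interval -0.05 to 0.41, adjusted p = 0.519 by edgeR, 4.47% of genes called), from 2 passages at 72 h. With Ibr + AS it gave 0.05 (interval -0.16 to 0.26, adjusted p = 0.903 by edgeR, 9.66% of genes called), the mean of a rise of 0.53 in passage p121, a value of -0.03 in passage p126 and a value of -0.31 in passage p128. Up to 48 h the log2 FC was 0.10 with AS (0.327% of genes called), -0.07 with Ibr (0.273%) and 0.02 with Ibr + AS (1.03%), each with an edgeR adjusted p of 0.953 or above. NFATC1 thus had log2 changes from 24 h to 72 h of 0.54, 0.40, 0.18 and 0.05 in DMSO, AS, Ibr and Ibr + AS.

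Whether these courses differed from the vehicle was tested directly, as the effect of a treatment at 72 h minus its effect at 24 h. For Ibr + AS the difference was -0.50 (SE 0.15, 95% interval -0.79 to -0.21) with an edgeR adjusted p of 0.00552, negative in 3 of 3 passages at -0.16, -0.32 and -1.02. The percentage of genes called in this test was 24.6%. Without passage p128 the difference was -0.23 with an adjusted p of 0.551. For Ibr it was -0.37 (interval -0.67 to -0.06, adjusted p = 0.106 by edgeR, 14.4% of genes called), and with the left-out Ibr library restored it was -0.42 with an adjusted p of 0.0344. For AS it was -0.15 (interval -0.44 to 0.14, adjusted p = 0.681 by edgeR, 8.32% of genes called).

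At 48 h the corresponding differences from 24 h were -0.42 for Ibr (adjusted p = 0.245), -0.25 for AS (adjusted p = 0.750) and -0.33 for Ibr + AS (adjusted p = 0.373) by edgeR, negative in 3 of 3 passages for each agent. The percentages of genes called were 0.702%, 0.428% and 1.75%. A fit on the groups compared gave -0.44 for Ibr with an adjusted p of 0.0309. All differences of this kind use the same DMSO libraries at 24 h, in which NFATC1 was low, so they are not independent of each other.

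Direct comparisons of the treatments gave 0 calls of 9 for NFATC1 by edgeR and none by DESeq2, while 2 of the 9 had an unadjusted p under 0.05 by edgeR. Ibr and AS differed most at 24 h, with a log2 FC of 0.35 (interval 0.14 to 0.56) for Ibr against AS and an edgeR adjusted p of 0.106, where only 0.718% of genes were called. All 3 Ibr libraries lay above all 3 AS libraries, and a fit on those groups alone gave an adjusted p of 9.41e-05. At 48 h and 72 h the log2 FC of Ibr against AS was 0.18 and 0.14 (adjusted p = 0.604 and 0.804 by edgeR, 1.67% and 1.95% of genes called).

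Ibr + AS against Ibr gave -0.17, -0.08 and -0.30 at 24, 48 and 72 h, with edgeR adjusted p of 0.316, 0.710 and 0.108. The percentages of genes called were 19.4%, 20.1% and 7.09%. Ibr + AS against AS gave 0.18, 0.11 and -0.16, with edgeR adjusted p of 0.226, 0.555 and 0.354, where 24.8%, 27.8% and 15.5% of genes were called. Without passage p121 the value against AS at 24 h was 0.38 with an adjusted p of 0.0121.

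The combination was also set against the sum of its parts on the log2 scale. The departure of NFATC1 from additivity was -0.10 at 24 h (interval -0.40 to 0.19), 0.24 at 48 h (interval -0.05 to 0.53) and -0.08 at 72 h (interval -0.39 to 0.22). The edgeR adjusted p values were 0.913, 0.352 and 0.928, while 4.09%, 13.6% and 8.02% of genes departed from additivity at those times. At 48 h the departure was positive in 3 of 3 passages, so that the value of Ibr + AS was less negative than the sum of the separate values.

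Time took a large share of the variation of NFATC1. Over the 35 libraries, incubation time held 34.8% of the sum of squares of its log2 CPM, against a median of 6.83% over the 10785 genes that average 1 CPM or more, and 3.47% of those genes had a larger share. Treatment held 20.4% (median of genes 33.8%), treatment by time 19.6% (median 15.5%), passage 1.38% (median 2.66%) and the remainder 23.9% (median 26.3%). The SD of the 12 group means of NFATC1 was 0.19 on the log2 scale, close to the median of 0.20. NFATC1 was therefore an ordinary gene in how much it varied and stood high in how far incubation time ordered that variation.

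Among the 878 genes that have a symbol and average 1 CPM or more, the 5 whose group means followed NFATC1 most closely were TRIM39 (Pearson r = 0.90 over the 12 group means), HABP4 (0.87), RNF5 (0.87), IGF2R (0.84) and FAM118A (0.84). TRIM39 and RNF5 encode E3 ubiquitin ligases, HABP4 an RNA-binding protein, and IGF2R the mannose 6-phosphate receptor that carries enzymes to lysosomes. TRIM39 averaged only 4.39 CPM. Its r was 0.75 without passage p121, 0.90 without passage p126 and 0.76 without passage p128. Over all 10784 other genes r ran from -0.94 to 0.92. The groups share libraries, passages and depth with NFATC1, so these values describe the 12 points and carry no test. Within groups the likeness was weak, as r over the 35 libraries after removal of group means lay between -0.29 and 0.50 for the 5 genes.

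IGF2R and NFATC1 had steps of different size. IGF2R went from 60.1 ± 2.63 to 109 ± 14.3 CPM in DMSO from 24 h to 72 h, and from 56.5 ± 8.61 to 68.8 ± 8.28 CPM with Ibr + AS (SD, n = 3). Against DMSO, IGF2R had a log2 FC of -0.01 with Ibr at 24 h and -0.27 with AS at 48 h, where NFATC1 had 0.29 and -0.32. FAM118A had log2 FC of 0.79 for DMSO 72 h against 24 h and -0.86 for Ibr + AS against DMSO at 72 h, where NFATC1 had 0.54 and -0.38. Among the same 878 genes with a symbol, those least like NFATC1 were ASF1A (r = -0.90), TXNRD1 (-0.83) and VARS2 (-0.79). They encode a histone chaperone, thioredoxin reductase 1 and mitochondrial valyl-tRNA synthetase. TXNRD1 went from 381 ± 17.2 to 232 ± 7.36 CPM in DMSO while NFATC1 went up, and from 264 ± 6.96 to 375 ± 23.6 CPM with Ibr + AS (SD, n = 3).

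**Figure D3:**
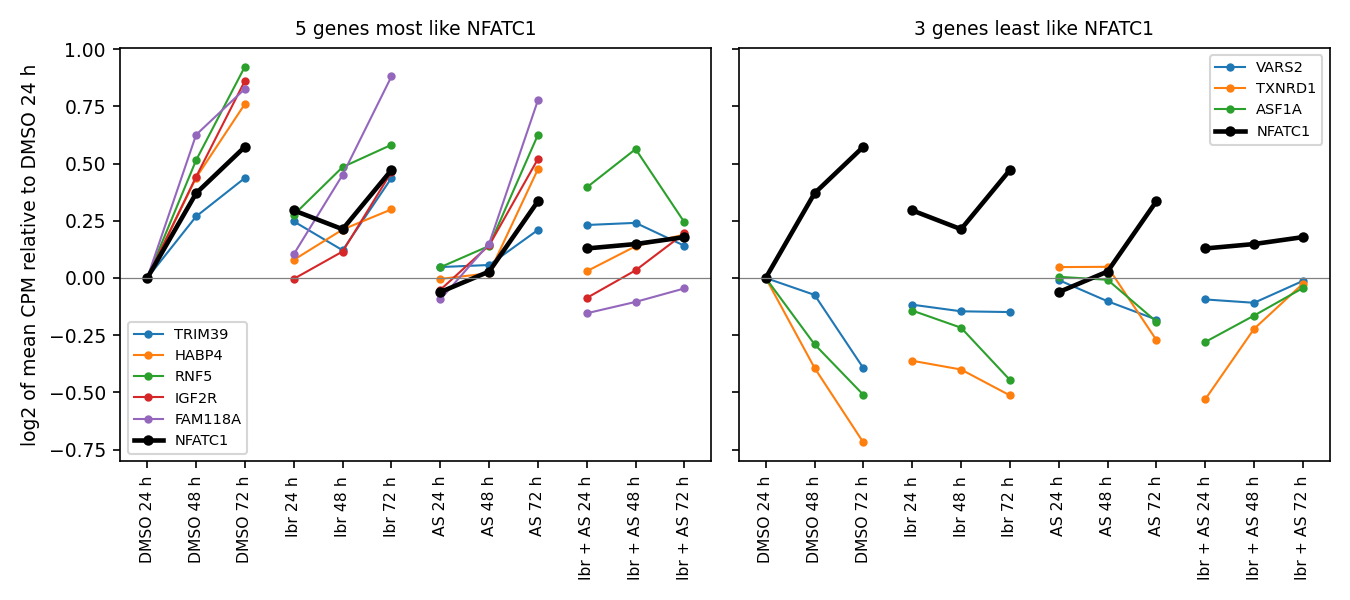
Group means as log2 of CPM relative to DMSO 24 h (y axis) over the 12 groups (x axis), NFATC1 in black. In colour are the 5 genes most like it (left) and the 3 least like it (right), among genes with a symbol. From 24 h to 72 h in DMSO, HABP4, RNF5, IGF2R and FAM118A rise as NFATC1 does, TRIM39 has a log2 FC of 0.38 (edgeR adjusted p = 0.0575), and ASF1A, TXNRD1 and VARS2 fall.

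Genes that act around NFATC1 were read from a list of NFAT family members and regulators, of which 9 of 41 besides NFATC1 could be paired with an identifier. In DMSO from 24 h to 72 h, 3 of 8 tested members were called higher and 3 lower, against 18.5% and 19.5% of all genes. With Ibr + AS against DMSO 3, 2 and 2 of 9 were higher at 24, 48 and 72 h and 1 was lower at 24 h and at 72 h, while 17.1%, 15.4% and 14.1% of all genes were higher and 16.9%, 15.3% and 14.5% lower. The median log2 FC at 72 h over the 8 members averaging 1 CPM or more was 0.16, beside 0.01 over all such genes. The other NFAT genes, calcineurin and calmodulin were not analysed here, so the list says little of the core of the pathway.

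CSNK1E encodes casein kinase 1 epsilon, one of the kinases that phosphorylate NFAT proteins and so favour their export from the nucleus. It had log2 FC of 0.60 in DMSO from 24 h to 72 h (adjusted p = 1.97e-10) and -0.55 with Ibr + AS at 72 h (adjusted p = 6.72e-06) by edgeR, comparisons that share the DMSO 72 h libraries. With Ibr at 24 h it had a log2 FC of -0.25 (adjusted p = 0.155 by edgeR), where NFATC1 had 0.29. DYRK2, of the DYRK family that primes NFAT for further phosphorylation, rose by 0.74 in DMSO and had a log2 FC of -0.27 with Ibr + AS at 72 h (adjusted p = 0.179), after a rise of 0.56 at 24 h (adjusted p = 0.00139). MAPK14, the p38 alpha kinase, fell by 0.52 in DMSO over time and by 0.40 with Ibr + AS at 24 h (adjusted p = 0.000327).

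DEF6, a guanine nucleotide exchange factor of lymphocytes that acts on calcium signalling and NFAT, differed most from NFATC1 in direction. It fell by 0.62 in DMSO over time and rose by 0.58, 0.76 and 1.13 with Ibr + AS at 24, 48 and 72 h. PIM1, a kinase known to bind NFATC1 and raise its activity, rose by 0.80, 0.68 and 0.36 with Ibr + AS. EP300, a coactivator, fell by 0.19 in DMSO by edgeR (adjusted p = 0.0350), which DESeq2 did not call (adjusted p = 0.211). ITPR3, an IP3 receptor of the calcium stores, rose by 0.28 in DMSO and had log2 FC of 0.24, -0.04 and -0.13 with Ibr + AS, none of them called. NFAM1, an NFAT-activating membrane receptor, had 3 reads in all 35 libraries together.

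Of 60 genes of B-cell receptor signalling 5 could be paired, and SYK, BTK and PLCG2 were not among them. Of genes averaging 1 CPM or more, as all 5 do, 54.6% were called in either direction in DMSO from 24 h to 72 h. For Ibr + AS against DMSO at 72 h it was 45.5%. In DMSO 4 of the 5 fell from 24 h to 72 h while NFATC1 rose, against 19.5% of all genes. These were PIK3R1, a regulatory subunit of PI3K (-0.45), the lipid phosphatase INPP5D (-0.43), the GTPase RAC2 (-0.26) and BRAF (-0.26, not called by DESeq2 with adjusted p = 0.139). With Ibr + AS at 72 h, where NFATC1 was lower, 3 of 5 were higher against 14.1% of all genes. PIK3R1 rose by 0.47, RAC2 by 0.72 and INPP5D by 0.27. At 24 h RAC2 rose by 0.54, while INPP5D fell by 0.25 (adjusted p = 0.0375) and BRAF by 0.32 (adjusted p = 0.0425) by edgeR, neither of which DESeq2 called. MALT1, a protease of the NF-κB branch, had log2 FC between 0.12 and 0.28 with Ibr + AS and was not called at any of these times.

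Genes listed as targets of NFAT proteins gave a mixed picture beside NFATC1. Of 30 such genes 11 could be paired, and with Ibr + AS at 72 h 1 was higher and 4 were lower, against 14.1% and 14.5% of all genes. Over the 5 paired genes averaging 1 CPM or more the median log2 FC was -0.34, beside 0.01 over all such genes. In DMSO from 24 h to 72 h 4 of 9 tested genes were higher and 1 was lower, against 18.5% and 19.5% of all genes. Both TNF and EGR1 rose with NFATC1 in DMSO and were lower with Ibr + AS at 72 h. The single agents at 72 h gave TNF means of 11.5 CPM (Ibr, n = 2) and 16.04 CPM (AS, n = 3) against 33.1 CPM in DMSO. NFATC1 had 54.9 and 49.9 CPM there against 58.9 CPM. At 24 h EGR1 had 24.5 ± 17.9 CPM with Ibr and 118 ± 17.1 CPM with AS (SD, n = 3), against 118 CPM in DMSO. NFATC1 with Ibr was higher at that time, with 48.6 against 39.6 CPM. Whether either gene depends on NFATC1 was not tested.

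TNF, a cytokine, went from 14.9 ± 2.60 to 33.1 ± 1.87 CPM in DMSO and was at 15.97 ± 2.15 CPM with Ibr + AS at 72 h (SD, n = 3), a log2 FC of -1.04 against DMSO (adjusted p = 0.00720 by edgeR). At 24 h and 48 h TNF had log2 FC of 0.24 and 0.50 with Ibr + AS (adjusted p = 0.603 and 0.214 by edgeR), with means of 17.6 and 29.4 CPM against 14.9 and 21.5 CPM in DMSO. EGR1, an immediate early gene, went from 118 ± 15.4 to 278 ± 37.3 CPM in DMSO and was lower with Ibr + AS at all times, with log2 FC of -2.70, -2.69 and -3.99. For EGR1 in DMSO at 72 h against 24 h, edgeR gave an adjusted p of 9.52e-56 and DESeq2 gave 0.0181, and at 48 h its libraries spread from 84.8 to 285 CPM. MYC rose by 0.99 in DMSO, by 1.39 and 0.96 with Ibr + AS at 24 h and 48 h, and had -0.01 at 72 h. CDK4, a cell cycle kinase, fell by 0.65, 0.61 and 0.34 with Ibr + AS. LTA, which encodes lymphotoxin alpha, fell by 0.46 at 24 h and rose by 0.37 at both later times.

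IL5 had at most 21 reads in a library, and rose by 1.47 in DMSO over time by edgeR (adjusted p = 0.00152, and 0.0525 by DESeq2). It rose by 1.19 with Ibr + AS at 24 h and fell by 1.74 at 72 h. IL4, IL13 and IFNG, cytokines of T cells, had 9, 4 and 2 reads in all 35 libraries together, TNFRSF11A had at most 7 reads in a library and DCSTAMP at most 9.

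**Figure D4:**
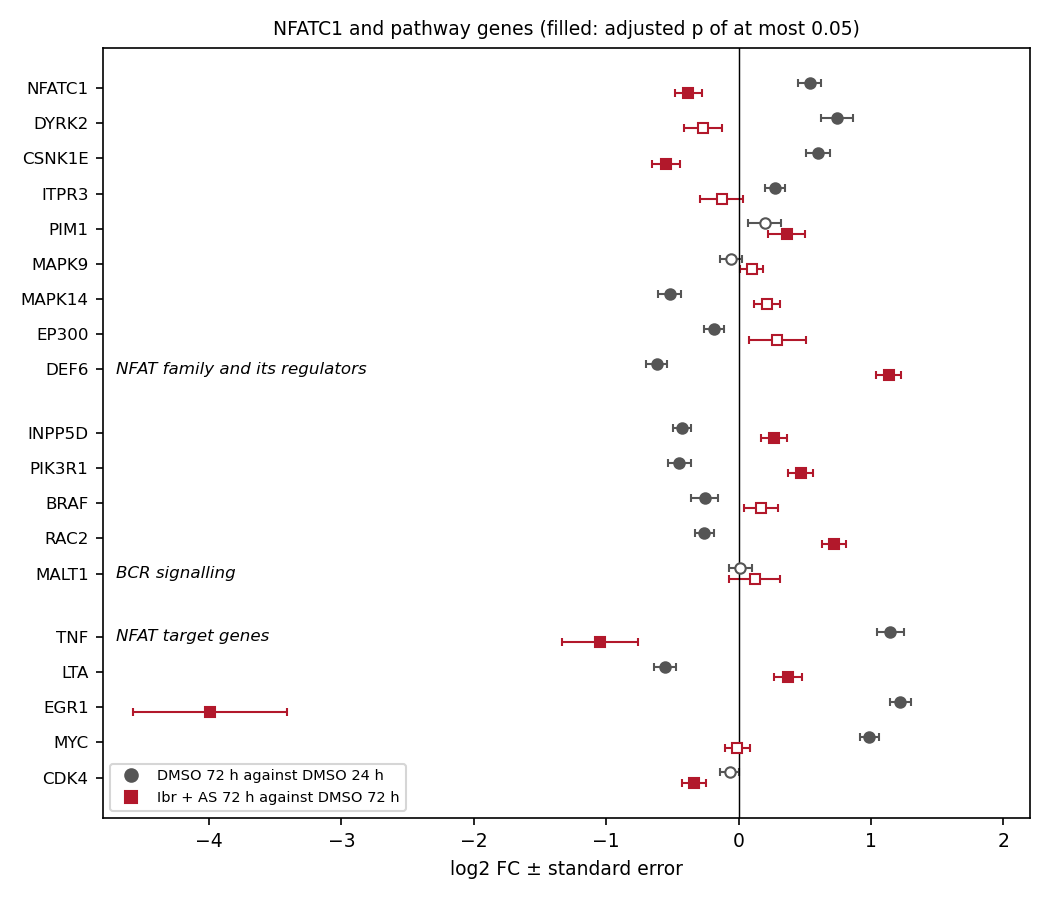
Log2 FC with its standard error (x axis) of NFATC1 and the paired pathway genes averaging 1 CPM or more (rows), for DMSO 72 h against 24 h (grey circles) and Ibr + AS against DMSO at 72 h (red squares), filled where the adjusted p is at most 0.05. Both comparisons share the DMSO 72 h libraries. NFATC1, CSNK1E, TNF and EGR1 are filled to the right in grey and to the left in red, and DEF6, INPP5D, PIK3R1, RAC2 and LTA the other way.

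The genes beside NFATC1 on the chromosome were set against it. In the RefSeq order SLC66A2 and CTDP1 lie on one side of NFATC1 and ATP9B lies next on the other. The list held 10 neighbours, all paired with an identifier, and it is not the whole neighbourhood. RBFA, HSBP1L1, KCNG2, SALL3, GALR1 and ZNF516, also near NFATC1 in that order, were not in it. In DMSO from 24 h to 72 h, 1 of 10 was higher and 4 were lower, against 18.5% and 19.5% of all genes. Only ATP9B, a phospholipid-transporting ATPase, rose there with NFATC1, by 0.32 (adjusted p = 0.000986 by edgeR). SLC66A2, CTDP1, TXNL4A and MBP fell by 0.34, 0.37, 0.35 and 0.39.

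With Ibr + AS at 72 h, where NFATC1 was lower, 3 of 10 neighbours were higher by edgeR and the other 7 were not called, against 14.1% of all genes higher and 14.5% lower. CTDP1, a phosphatase of RNA polymerase II, rose by 0.34, MBP by 0.52 and SLC66A2 by 1.00. SLC66A2 was at 36.4 to 39.1 CPM in the vehicle and 70.1 to 82.6 CPM with Ibr + AS, and it was also higher at 24 h and 48 h, by 0.95 and 0.89. ATP9B had -0.10 at 72 h, after rises of 0.45 and 0.38 at 24 h and 48 h, when NFATC1 had 0.12 and -0.21. TXNL4A fell by 0.30 and 0.26 at these times, and ZADH2 rose by 0.27 at 24 h. Of these 10 neighbours, none was called both higher in DMSO over time and lower with Ibr + AS at 72 h. ATP9B had the signs of NFATC1 in both, but its -0.10 with Ibr + AS was not called.

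**Figure D5:**
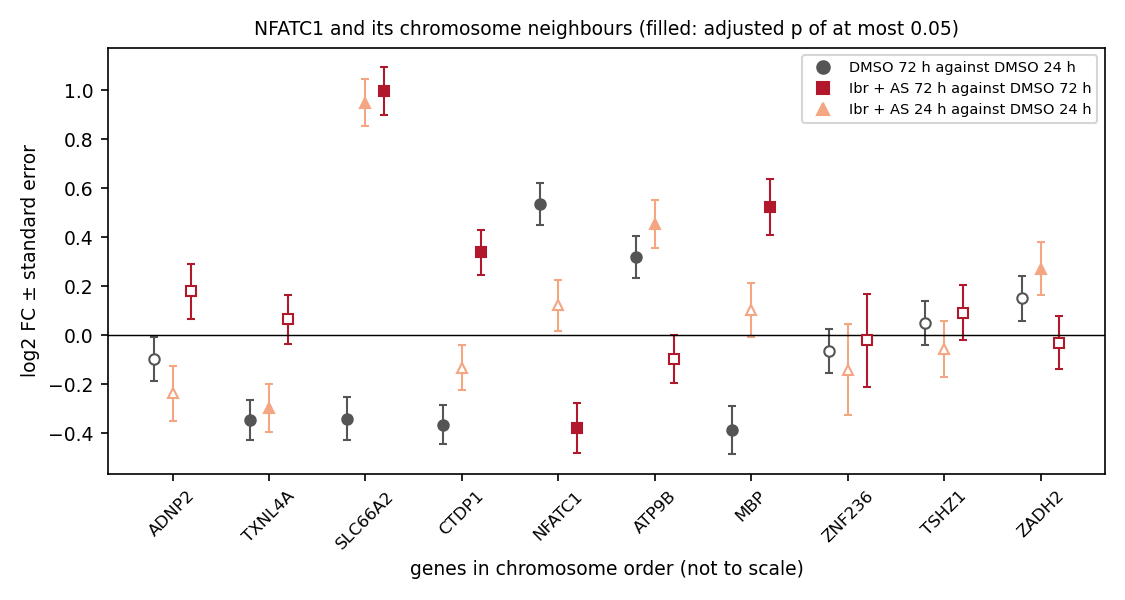
Log2 FC with its standard error (y axis) of NFATC1 and its paired neighbours averaging 1 CPM or more in chromosome order (x axis, not to scale), for DMSO 72 h against 24 h, Ibr + AS against DMSO at 72 h and at 24 h, filled where the adjusted p is at most 0.05. NFATC1 has 0.54 and -0.38 for the first and second, while CTDP1 and SLC66A2 have the opposite signs.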

How the data were processed

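RNA of 36 CLBL-1 libraries was analysed. The authors pooled the lanes, mapped the reads to CanFam3.1 and deposited raw gene counts made with STAR 2.7.5a, the version in the submitters' processing notes. The strand column kept was not given in the sources used here. The label of DMSO 24 h replicate 3 holds passage p126 in its title and p128 in its passage field, and p128 was used. The main test was the robust quasi-likelihood test of edgeR 4.0.16 (R 4.3.3) with TMM factors, group and passage as terms and Benjamini-Hochberg adjustment over all genes tested, and DESeq2 1.42.0 was an alternative. A gene needed 2 reads in total to enter a fit, which left 18670 genes in 35 libraries and 16468 in the 9 DMSO libraries used for changes of DMSO over time. Libraries of equal replicate number share a passage, and after removal of group means the median r was 0.0930 within and -0.0349 between passages (187 and 374 pairs). Chi-square per degree of freedom between replicates was 1.87 or more in 36 pairs, so no library was counted as a duplicate. Symbols were paired with 1068 identifiers through the study's supplementary tables, which were at hand in part. Other settings tried were RLE factors, filterByExpr, the full 36 libraries, a fit without passage, only the groups compared, 1 fit of 35 libraries for DMSO, CPM without TMM factors, leaving out each replicate, and, added after the data were seen, the sequencing run. The gene and the lists were chosen with earlier results of these data known. Named by rule were NFATC1 in every comparison, paired list members called in Ibr + AS against DMSO or in DMSO at 72 h against 24 h together with NFAM1, ITPR3, PIK3R1, INPP5D and MALT1, the neighbours, and the 5 genes most and 3 least like NFATC1. The list genes with few reads and the markers were named after their values were seen. The procedure was tested on simulated data.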

Additional observations from a re-analysis of the deposited data

Results flagged for a closer look

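The effect of Ibr + AS on NFATC1 differed between incubation times, by a direct test of the difference. It was 0.12 on the log2 scale at 24 h and -0.38 at 72 h, a change of -0.50 (SE 0.15, adjusted p = 0.00552 by edgeR), negative in 3 of 3 passages. Both times lean on DMSO libraries whose own NFATC1 level rose from 39.6 to 58.9 CPM, while the Ibr + AS means were 43.3 and 44.8 CPM. Without replicate 3 (passage p128) the change was -0.23 with an adjusted p of 0.551.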

How the results depend on the processing

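With 369 reads or more per library NFATC1 was measured above the noise of low counts, and the limits lie in 3 passages of 1 line, in gene counts that sum over isoforms and in the symbols that could be paired. Of the 5 calls, DMSO 72 h against 24 h held in all 9 alternatives, and the others were lost in leave-one-out fits only. The cause of each change below was not tested.

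Leaving out each replicate in turn gave Ibr + AS against DMSO at 72 h from -0.45 to -0.25, at 24 h from -0.015 to 0.24, DMSO 48 h against 24 h from 0.30 to 0.40, DMSO 72 h against 48 h from 0.061 to 0.30, AS 72 h against 24 h from 0.33 to 0.52, and the change of the Ibr + AS effect from 24 h to 72 h from -0.68 to -0.23. It also gave Ibr against DMSO at 72 h from -0.13 to 0.013, AS against DMSO at 24 h from -0.14 to 0.0076, Ibr + AS against Ibr at 24 h from -0.33 to 0.048 and against AS at 24 h from 0.079 to 0.38. Ibr 48 h against 24 h ran from -0.12 to 0.0093, Ibr + AS 48 h and 72 h against 24 h from -0.13 to 0.16 and from -0.17 to 0.23, the departure from additivity at 24 h from -0.24 to 0.19 and at 72 h from -0.21 to 0.0013, and the change of the AS effect from 24 h to 72 h from -0.33 to 0.00070. The adjusted p of each call lost in this way stands in the report.

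Ibr against DMSO at 24 h became a call with DESeq2 (0.29), with filterByExpr (0.29) and with the groups compared only (0.29). AS against DMSO at 48 h became a call with DESeq2 (-0.33), RLE factors (-0.33), all 36 libraries (-0.33) and the groups compared only (-0.33). The groups compared only also called Ibr + AS against DMSO at 48 h (-0.19), Ibr against AS at 24 h (0.36), the change of the Ibr effect to 48 h (-0.44) and to 72 h (-0.37), and turned Ibr against DMSO at 72 h to 0.010. All 36 libraries called the change of the Ibr effect to 72 h (-0.42), and the sequencing run called DMSO 72 h against 48 h (0.29). CPM without TMM factors moved the means of DMSO 24 h to 41.0, AS 48 h to 41.4 and Ibr + AS 48 h to 41.6, and put Ibr + AS 24 h, at 40.9, below DMSO 24 h.

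Without the replicate block no call of the 36 changed, with Ibr + AS against DMSO at 72 h at -0.38 (adjusted p = 0.00347) and DMSO 72 h against 24 h at 0.54 (adjusted p = 9.46e-06) by edgeR. Counts over all genes moved more. DMSO 48 h against 24 h had 1633 calls, 968 without the block, 948 with DESeq2 and 534 in 1 fit of 35 libraries, and AS against DMSO at 24 h had 471, 790 with DESeq2 and 2284 with the groups compared only. The other all-gene counts that moved by over 1.5 times did so mostly with the groups compared only or with a replicate left out.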
